A study of Mus musculus with 18 samples.

Results

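Expression of 10 genes of the MHC class I pathway was followed in bone marrow-derived macrophages (BMMs): the heavy chain genes H2-K1 and H2-D1, B2m for their light chain, Tap1, Tap2 and Tapbp of the peptide loading complex, Psmb8, Psmb9 and Psmb10 of the immunoproteasome, and Nlrc5, which encodes a transcriptional activator of these genes. They form a list of names set by role in class I presentation, and each gene was found by its symbol and gene identifier among 38887 genes. The study asked how the glucocorticoid-induced leucine zipper (GILZ, encoded by Tsc22d3) affects macrophages at rest and after lipopolysaccharide (LPS) of Gram-negative bacteria. RNA-seq libraries were made from BMMs of 3 genotypes with and without LPS, with 3 preparations in each of 6 groups and 18 libraries in all.

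All BMMs came from adult female C57BL/6J mice, matched for age within a set of experiments, and were grown from bone marrow for 6 days with 50 ng/ml M-CSF. The LPS groups were treated with 100 ng/ml LPS for 4 h, and the other groups were untreated. All 3 genotypes, WT included, are described as carrying Cre under control of the myeloid Lyz2 locus. In GILZ KO mice, Cre removed a loxP-flanked exon of Gilz in cells that express Lyz2. In GILZ TG mice, Cre removed a stop cassette in front of a Gilz cDNA in the ROSA26 locus, so that both models depend on how completely Cre acted in the culture. The 3 preparations of a group are independent and came from 3 mice, and p-values below measure the spread between them. In tests of LPS effects, untreated and LPS libraries were taken as independent, although those of the same number may share a preparation.

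Class I molecules show peptides from the inside of a cell to CD8+ T cells and are present on nearly all nucleated cells. The peptides are cut by the proteasome, pumped into the endoplasmic reticulum by the TAP transporter, and loaded by tapasin onto a heavy chain bound to beta-2-microglobulin. Inflammatory signals, above all interferons, raise the genes of this pathway and replace the catalytic proteasome subunits Psmb6, Psmb7 and Psmb5 by the immunosubunits Psmb9, Psmb10 and Psmb8. NLRC5 acts at class I promoters together with factors that bind the X and Y boxes.

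On GRCm38, 7 of the 10 genes lay on chromosome 17 within the MHC, from Tapbp (33915899 to 33929292) and H2-K1 (33996017 to 34000347) over Psmb9, Tap1, Psmb8 and Tap2 to H2-D1 (35262730 to 35267499). Psmb9 (34181987 to 34187764, minus strand) and Tap1 (34187553 to 34197225, plus strand) are head to head, and their annotated spans overlap by 212 bases. Psmb8 (34197721 to 34201454) and Tap2 (34203527 to 34216321) follow downstream of Tap1. B2m is on chromosome 2 (122147686 to 122153083), and Psmb10 (105935735 to 105938444) and Nlrc5 (94434356 to 94527272) are on chromosome 8. The libraries were made with a directional kit, but the strand setting of the counting is not given in the sources used here. Reads in the overlap of Psmb9 and Tap1, and in opposite-strand genes such as Patl2 around B2m and Gm16156 around Psmb10, therefore cannot be told apart with certainty.

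RefSeq promoters of 300 bases on GRCm38.p6, with 250 bases before the start of the gene, were at hand for 8 of the 10 genes, without Tap2 and Nlrc5. They were searched on both strands for 5 motifs that belong to the regulation of this pathway. ATTGG, the core of a Y box, was found in 6 of the 8 (H2-K1, H2-D1, B2m, Tap1, Tapbp and Psmb9) and in 37.4% of all 32851 promoters. An NF-kB-like motif, which is GGGA, any 4 bases and CC, was found in H2-K1, H2-D1 and B2m and in 20.7% of all promoters. TGACGC, taken here as an X2-like box, was found in H2-K1 and H2-D1 (7.4% of all). TGACGA, which differs in the last base and was not counted, is present in B2m, Tap1 and Psmb9. A motif like an interferon-stimulated response element (ISRE) was taken as GAAA, any 2 bases and GAAA again. With these exact letters it was found in B2m only among the 8 (3.44% of all). The stretch tttcacttctgc, present in H2-K1 and H2-D1, resembles this motif on the other strand. It does not match the letters searched for and was not counted. TTCNNNGAA, like a gamma-activated sequence (GAS), was found in Psmb8 only (8.3% of all). The windows of Psmb9 and Tap1 share 275 bases, and their Y box matches are one and the same site, counted for both genes. A match of these letters describes the sequence and does not show that a factor binds there. The lack of a match likewise does not show that a response element is absent.

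The upstream sequences below carry the matches, which are in capitals, and are shown because they set H2-K1, H2-D1 and B2m, highly expressed genes with a small fold change after LPS, beside Psmb8. All lie before the RefSeq start, but the stretches of H2-D1 and Psmb8 are within the annotated gene spans given above, which begin further upstream. For H2-K1 (chr17:34000348-34000547, minus strand) the capitals mark in this order the NF-kB-like motif, which matches on both strands 1 base apart, the X2-like box and the Y box. For B2m (chr2:122147487-122147685, plus strand) they mark the ISRE-like motif, the NF-kB-like motif and the Y box. Of H2-D1 (chr17:35262909-35262938, plus strand) and Psmb8 (chr17:34198087-34198116, plus strand), 30 bases around the NF-kB-like and the GAS-like motif are given.
H2-K1: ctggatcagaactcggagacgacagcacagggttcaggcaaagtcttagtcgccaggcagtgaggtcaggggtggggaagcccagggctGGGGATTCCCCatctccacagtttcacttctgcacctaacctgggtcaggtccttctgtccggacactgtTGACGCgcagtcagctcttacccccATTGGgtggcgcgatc
B2m: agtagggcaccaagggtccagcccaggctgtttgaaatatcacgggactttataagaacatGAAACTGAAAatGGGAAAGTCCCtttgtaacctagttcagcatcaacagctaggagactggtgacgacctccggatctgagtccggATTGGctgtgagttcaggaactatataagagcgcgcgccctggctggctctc
H2-D1: ggaagcccagggctGGGGATTCCCCatctc
Psmb8: gtcctccgctgTTCCCAGAAgatgcccccc

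The total expected count per library was 14583055 to 38557029, with the lowest 2 in GILZ KO after LPS. Tsc22d3 was at 14.88 to 18.84 TPM in untreated WT, 1.89 to 2.81 TPM in untreated GILZ KO and 151.97 to 159.83 TPM in untreated GILZ TG, which follows the labels. After LPS, Tsc22d3 was at 4.56 to 5.81 TPM in WT, 2.5 to 3.28 TPM in GILZ KO and 127.22 to 140.56 TPM in GILZ TG. Lyz2, the locus that carries Cre, was at 11048 to 15401 TPM in untreated WT but at 17.24 to 53.08 TPM in untreated GILZ KO and GILZ TG, and at 6766 to 9466 TPM in WT against 22.15 to 70.25 TPM in the others after LPS. These values go against the same Lyz2 allele in WT, so that in comparisons with WT a difference in this allele and the difference in GILZ cannot be told apart. All 10 macrophage markers were above 1 TPM on average in each group (4907 to 6291 TPM summed). The 10 T and NK cell markers summed to 0.75 to 2.07 TPM untreated and 2.13 to 3.75 TPM after LPS. Of these, Cd3d and Cd3e were listed at 0 in every library. GILZ TG replicates 1 and 2 stood apart, as their stromal markers summed to 191 and 224 TPM untreated, against 20.2 TPM in GILZ TG replicate 3 and 10.3 to 40.4 TPM in WT and GILZ KO. Neutrophil and B cell markers were also highest in these replicates, with 154 and 402 TPM and 93.6 and 158 TPM untreated. GILZ TG replicate 3 was at 57.9 TPM in neutrophil and 36.1 TPM in B cell markers untreated. Both sums were above those of WT and GILZ KO, at 19.8 to 49.8 TPM and 31.0 to 35.5 TPM. In bulk RNA, a different share of cells and a different amount of RNA per cell cannot be told apart.

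In untreated BMMs, B2m was the highest of the 10 genes, followed by H2-D1 and H2-K1. TPM, a measure scaled by transcript length and by the total of the library, was 2665 ± 73.5 for B2m, 1504 ± 1.87 for H2-D1 and 944 ± 17.3 for H2-K1 in WT (SD, n = 3). Psmb8 (216 ± 12.5) was next, then Tapbp (148 ± 1.26), Psmb10 (72.9 ± 1.99) and Psmb9 (56.9 ± 6.68). Tap1 (43.9 ± 3.04) and Tap2 (42.4 ± 1.21) overlapped between libraries, and Nlrc5 (15.5 ± 0.802) was the lowest. The other neighbours in this order did not overlap in untreated WT. The smallest count of a member in any library was 527 for Psmb9 and 545 for Nlrc5. The posterior SD of the count, which grows where reads fit several genes, was at most 0.0636% of the count in H2-D1 and 0 in B2m, Tapbp, Psmb8, Psmb9, Psmb10 and Nlrc5.

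**Figure D1:**
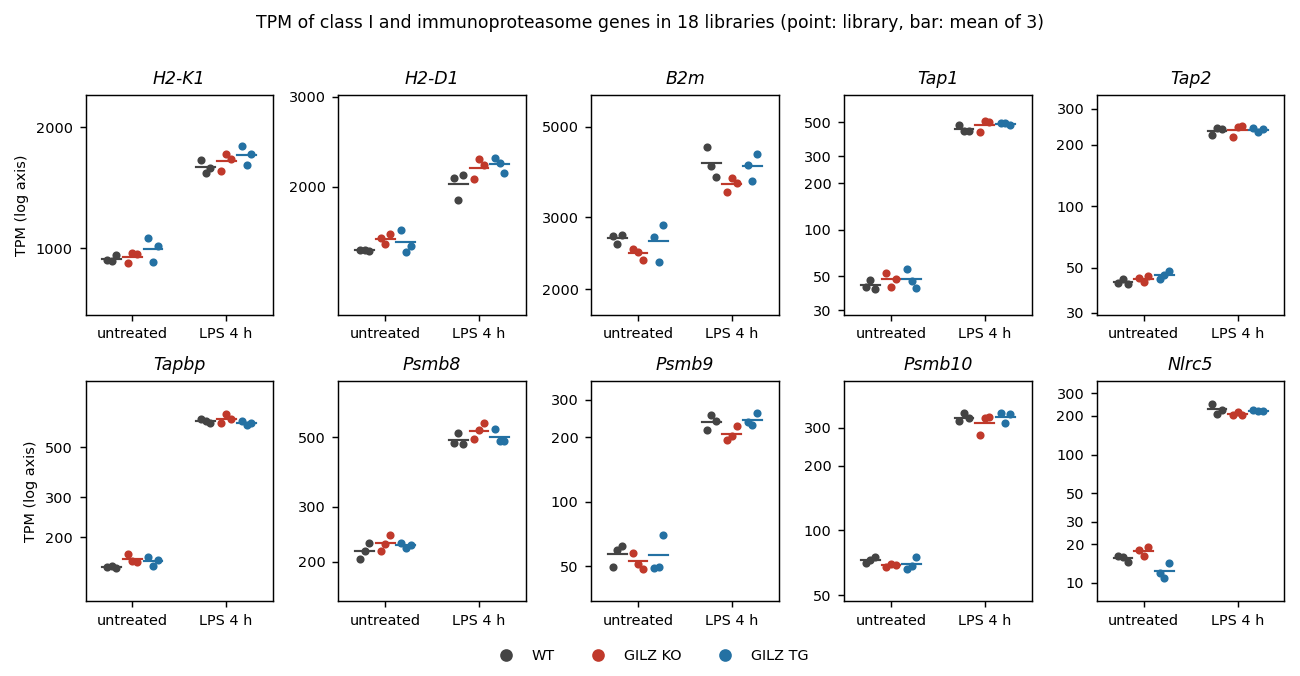
TPM of the 10 genes in each library on a log axis, by treatment, with WT in grey, GILZ KO in red and GILZ TG in blue. Points are libraries and bars are the means of 3, and for each gene all LPS libraries lie above all untreated libraries, with genotypes close together except for untreated Nlrc5.

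After 4 h of LPS all 10 genes were higher than in untreated BMMs of the same genotype, with the largest difference in Nlrc5 and Tap1 and the smallest in H2-D1, B2m and H2-K1. In each gene, the lowest of the 9 LPS libraries lay above the highest of the 9 untreated libraries in TPM. In the fit of all 18 libraries, 10 of 10 rose in WT, in GILZ KO and in GILZ TG, where 33.5%, 33.2% and 33.6% of the 13169 genes tested were called higher. The median log2 fold change was 2.78 in WT, 2.64 in GILZ KO and 2.73 in GILZ TG, against -0.022, -0.023 and -0.021 over all genes. The highest adjusted p of a member was 4.68e-09 in WT, 7.89e-09 in GILZ KO and 4.6e-09 in GILZ TG (edgeR quasi-likelihood test, Benjamini-Hochberg adjustment over all genes).

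These fold changes depend on the scaling in size but not in direction. TMM, a method that sets the bulk of genes to no change, was used for the log2 fold changes. When library totals were used in its place, the median of all genes moved by -0.68 in WT, -0.64 in GILZ KO and -0.67 in GILZ TG, and the share of higher genes among all calls was 18.9%, 18.8% and 18.5% in place of 48.9%, 48.4% and 48.9%. All 10 genes were still called higher in each genotype, with medians of 2.11, 2 and 2.05, where 15.9%, 15.5% and 15.5% of all genes were. The TPM ratios below are on a scale like that of the library totals.

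H2-K1 and H2-D1, the classical heavy chains of this strain, started high and had small fold changes. H2-K1 was at 936.97, 930.46 and 963.11 TPM in untreated WT and at 1659.54, 1544.25 and 1587.88 TPM after LPS, a ratio of 1.69. Its log2 fold change was 1.37 (with its standard error, SE, of 0.08 and edgeR adjusted p = 3.6e-11) and 0.69 with library totals. H2-D1 went from 1505.45, 1504.28 and 1501.79 TPM to 2078.36, 1887.33 and 2113.71 TPM in WT, the smallest ratio of the 10 genes with 1.35. The log2 fold change of H2-D1 was 1.06 (SE 0.06, edgeR adjusted p = 1.03e-10) and 0.38 with library totals. H2-K1 was at 919.97 to 971.93 TPM in untreated GILZ KO and 926.82 to 1058.91 TPM in untreated GILZ TG, and at 1557.07 to 1718.08 TPM and 1614.98 to 1793.46 TPM after LPS, with log2 fold changes of 1.41 in GILZ KO and 1.39 in GILZ TG. H2-D1 went from 1550.16 to 1614.7 TPM up to 2073.21 to 2266.54 TPM in GILZ KO (log2 fold change 1.1), and from 1495.25 to 1646.49 TPM up to 2127.93 to 2277.2 TPM in GILZ TG (1.12). In WT, H2-K1 per H2-D1 increased from 0.627 ± 0.0122 to 0.789 ± 0.0344 in TPM (SD, n = 3), and the 3 libraries of each group did not overlap. Both genes share reads with other class I genes. The sum of 19 heavy chain genes, which does not depend on how shared reads were split, had a log2 fold change of 1.44 in WT, 1.46 in GILZ KO and 1.49 in GILZ TG.

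B2m, whose product all class I heavy chains need, was at 2699.94, 2580.88 and 2715.07 TPM in untreated WT and at 4460.27, 3999.66 and 3759.79 TPM after LPS. The log2 fold change was 1.24 (SE 0.1, edgeR adjusted p = 4.68e-09) and 0.56 with library totals. In GILZ KO the log2 fold change was 1.2, from 2355.48 to 2514.29 TPM up to 3459.17 to 3737.91 TPM, and in GILZ TG it was 1.25, from 2324.79 to 2869.24 TPM up to 3682.5 to 4298.62 TPM. The TPM of both heavy chains together per B2m was 0.919 ± 0.0215 untreated and 0.894 ± 0.0794 after LPS in WT, with overlap. The libraries of both treatments also overlapped in this ratio in GILZ KO (1.04 untreated and 1.06 after LPS) and in GILZ TG (0.979 and 0.982).

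Tap1 and Tap2 encode both subunits of the peptide transporter, and Tap1 rose more. Tap1 was at 42.79, 47.29 and 41.51 TPM in untreated WT and at 477.65, 435.22 and 440.84 TPM after LPS, a ratio of 10.3. Tap2 went from 41.77, 43.83 and 41.7 TPM to 222.66, 240.97 and 238.69 TPM, a ratio of 5.52. The log2 fold changes were 4.01 for Tap1 (SE 0.08, edgeR adjusted p = 6.04e-17) and 3.08 for Tap2 (SE 0.09, edgeR adjusted p = 3.56e-15), or 3.33 and 2.4 with library totals. In GILZ KO, Tap1 went from 42.86 to 52.3 TPM up to 430.5 to 510.34 TPM, and in GILZ TG from 42.08 to 55.81 TPM up to 480.13 to 496.78 TPM, with a log2 fold change of 3.94 in each. Tap2 had log2 fold changes of 3.07 in GILZ KO (218.16 to 247.35 TPM after LPS) and 3.02 in GILZ TG (229.94 to 240.68 TPM after LPS). Both genes were at about the same level before LPS, with 1.03 ± 0.0424 Tap1 per Tap2. After LPS it was 1.93 ± 0.185 in WT, 2.03 in GILZ KO and 2.07 in GILZ TG, and no library overlapped with an untreated one.

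Tapbp (tapasin), which holds the empty class I molecule at the transporter, was at 147.03, 148.99 and 146.65 TPM in untreated WT and at 664.91, 654.77 and 638.64 TPM after LPS. Its log2 fold change was 2.78 (SE 0.07, edgeR adjusted p = 1.21e-15) and 2.1 with library totals. In GILZ KO it went from 155.81 to 168.27 TPM up to 640.69 to 699.69 TPM (log2 fold change 2.64), and in GILZ TG from 148.46 to 163.57 TPM up to 625.31 to 656.16 TPM (2.67). It was below Psmb8 in untreated WT and above it after LPS.

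The immunosubunits replace the constitutive catalytic subunits in newly made proteasomes. Psmb8 was at 204.46, 215.46 and 229.31 TPM in untreated WT and at 480.36, 515.63 and 476.53 TPM after LPS. Psmb9 went from 49.33, 59.44 and 61.96 TPM to 215.87, 253.31 and 237.27 TPM. Psmb10 went from 70.92, 72.78 and 74.89 TPM to 322.47, 350.03 and 331.96 TPM. Psmb8, the highest of them before LPS, had the smallest change, with a log2 fold change of 1.80 (SE 0.07, edgeR adjusted p = 6.59e-13) against 2.78 for Psmb9 (SE 0.1, edgeR adjusted p = 7.69e-14) and 2.83 for Psmb10 (SE 0.1, edgeR adjusted p = 5.19e-14). With library totals the values were 1.13, 2.11 and 2.15. In GILZ KO the log2 fold changes of Psmb8, Psmb9 and Psmb10 were 1.81, 2.64 and 2.84 with TMM, and in GILZ TG they were 1.81, 2.79 and 2.90. After LPS, Psmb8 was at 492.67 to 553.54 TPM in GILZ KO and 485.62 to 532.77 TPM in GILZ TG, and Psmb10 at 278.28 to 338.11 TPM and 316.07 to 350.17 TPM, so that both overlapped with WT.

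Against the constitutive subunit that each one replaces, all 3 immunosubunits gained. In WT, the TPM ratio of Psmb8 to Psmb5 was 0.666, 0.695 and 0.724 untreated and 2.09, 1.98 and 1.98 after LPS. The ratio of Psmb9 to Psmb6 went from 0.151, 0.175 and 0.176 to 0.646, 0.706 and 0.691, and that of Psmb10 to Psmb7 from 0.254, 0.252 and 0.254 to 1.25, 1.3 and 1.33. Transcripts of 2 immunosubunits thus outnumbered their counterparts after LPS, while Psmb9 stayed below Psmb6. The ratios do not depend on the scaling, unlike the direction of the counterparts themselves. Psmb6 and Psmb7 had log2 fold changes of 0.65 and 0.47 in WT with TMM, but -0.02 and -0.20 with library totals.

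**Figure D2:**
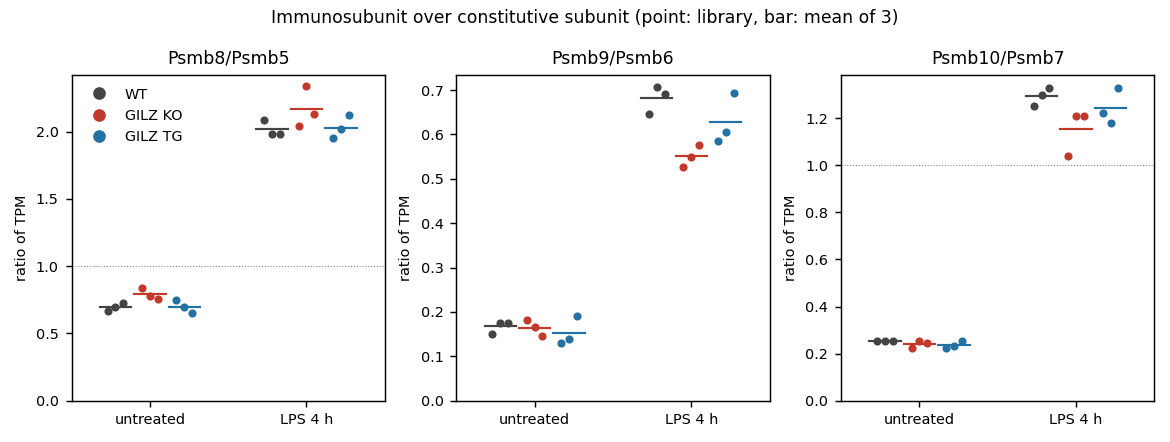
Ratio of the TPM of each immunosubunit to its constitutive counterpart in untreated and LPS-treated BMMs, with WT in grey, GILZ KO in red and GILZ TG in blue. Points are libraries, bars are means of 3, and the dotted line is a ratio of 1, which Psmb8/Psmb5 and Psmb10/Psmb7 passed after LPS and Psmb9/Psmb6 did not.

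Nlrc5 had the largest log2 fold change of the 10 genes in all 3 genotypes. It was at 16.05, 15.87 and 14.58 TPM in untreated WT and at 246.36, 208.4 and 224.22 TPM after LPS, a ratio of 14.6. The log2 fold change was 4.54 in WT (SE 0.09, edgeR adjusted p = 1.68e-16), 4.15 in GILZ KO (SE 0.09, edgeR adjusted p = 4.37e-16) and 4.74 in GILZ TG (SE 0.1, edgeR adjusted p = 1.18e-16). With library totals these were 3.86, 3.51 and 4.06. In WT, 2.58% of all genes had a higher log2 fold change. From the lowest of the 10 genes, Nlrc5 came to overlap with Tap2 and Psmb9 in WT after LPS.

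**Figure D3:**
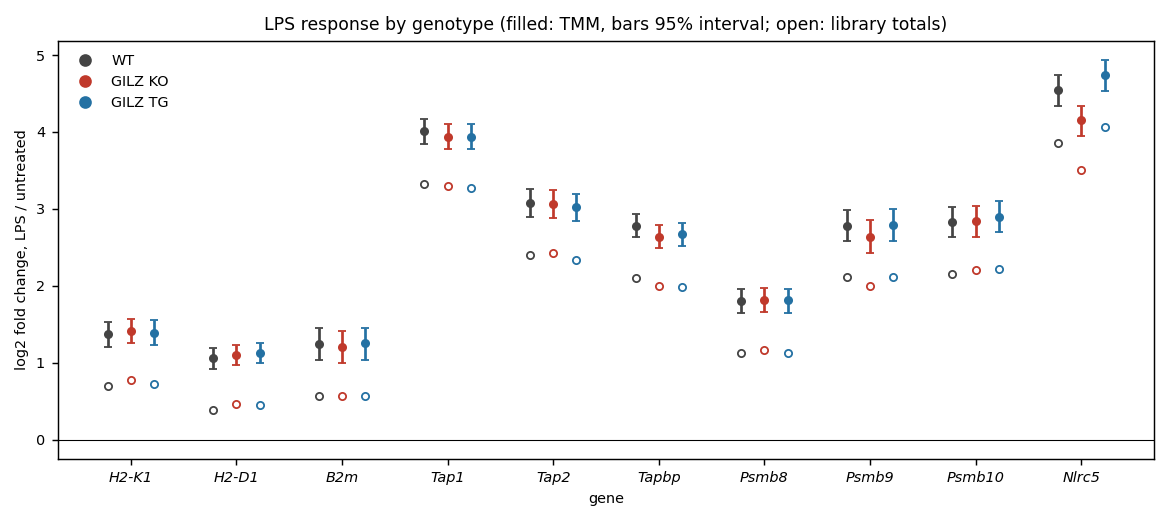
Log2 fold change of LPS against untreated for each gene in WT (grey), GILZ KO (red) and GILZ TG (blue). Filled points with 95% intervals are from TMM and open points from library totals, and all 10 genes are above 0 with both.

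The rest of the pathway was compared by lists. Over all genes, 35.1%, 35.4% and 35.1% were called lower in WT, GILZ KO and GILZ TG with TMM, beside the shares called higher given above, and 68.3%, 67.2% and 68.3% with library totals. All 10 tested genes of the other class I heavy chains rose in each genotype under both scalings, with a median log2 fold change of 2.88 in WT, 2.94 in GILZ KO and 3.16 in GILZ TG with TMM. H2-T24 (5.22) and H2-M2 (4.65) had the highest in WT. Of 15 genes of peptide loading and trimming, 12, 13 and 12 were higher and 0 lower in WT, GILZ KO and GILZ TG with TMM, but with library totals 6, 5 and 6 were higher and 7 lower in each. Tapbpl (2.51 and 1.83), a tapasin-related peptide editor, and Lnpep (2.25 and 1.56), an aminopeptidase, rose in WT under both scalings.

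For proteasome genes outside the immunosubunits, the counts in each direction depended on the scaling. Of 9 genes of proteasome activation and assembly, 4, 5 and 4 were higher with TMM in WT, GILZ KO and GILZ TG, and 2, 2 and 3 lower. With library totals 3 were higher and 5 lower in each. The activator subunits Psme2 (log2 fold change 2.32 in WT, 1.64 with library totals) and Psme1 (1.65 and 0.97) rose under both. Psmg2 (-0.53 and -1.21) and Psmg3 (-0.32 and -0.99) were lower in WT under both. Of 11 other subunits of the 20S core, 11, 11 and 10 were higher and 0 lower with TMM in WT, GILZ KO and GILZ TG, but 4, 5 and 2 were higher and 5, 4 and 4 lower with library totals. Of 20 subunits of the 19S regulatory particle, 15, 18 and 14 were higher with TMM and 0, 0 and 1 lower, whereas with library totals 1 was higher in each and 15, 13 and 17 were lower. Some common subunits were higher in WT under both scalings, such as Psma6 (log2 fold changes of 1.26 with TMM and 0.58 with library totals), Psma5 (1.24 and 0.56) and Psmd10 (1.31 and 0.63).

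Among 14 known regulators of class I genes, 7 were higher and 4 lower in WT with TMM, and 6 and 7 with library totals. Stat2 (4.56 and 3.88) and Irf1 (4.40 and 3.72), which transmit interferon signals, had the highest log2 fold changes in WT under both scalings. Rfxap of the X box complex was lower under both (-1.12 and -1.80). All 12 interferon-stimulated genes (ISGs) listed were higher in each genotype under both scalings, with Rsad2 (10.13) and Cmpk2 (9.86) the highest in WT with TMM. Of 6 class I-like genes, which include ligands of NK cell receptors, 1 was higher and 1 lower in WT with TMM. With library totals 0 were higher and 5 lower in WT.

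The genotypes differed little in most of the 10 genes. In untreated BMMs, 0 of 10 were called between GILZ KO and WT with edgeR, where 0.0951% of the 12621 genes were, and 1 (Nlrc5) had an unadjusted p under 0.05. Log2 fold changes were between -0.17 and 0.23, with standard errors of at most 0.1. For GILZ TG against WT, 0 of 10 were called with edgeR (0.642% of all genes) and 1 (Nlrc5) with DESeq2, and 1 had an unadjusted p under 0.05. Here the range was -0.32 to 0.12. In GILZ KO against GILZ TG, 1 of 10 was called, where 4.94% of all genes were, and it was Nlrc5. DESeq2 called 0 for GILZ KO against WT and 1 for GILZ KO against GILZ TG. Over all genes, 9.6%, 14.1% and 24.6% had an unadjusted p under 0.05 in the 3 comparisons.

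After LPS no member was called between genotypes. With edgeR, 0 of 10 passed for GILZ KO against WT (0.0822% of 12164 genes), 0 for GILZ TG against WT (0.46%) and 0 for GILZ KO against GILZ TG (2.6%), and DESeq2 gave 0 in each as well. At an unadjusted p under 0.05 there were 0, 0 and 1 of the 10, the last being Psmb9, beside 9.63%, 15.2% and 19.1% of all genes. The log2 fold changes were -0.18 to 0.10, -0.12 to 0.12 and -0.20 to 0.04. A p-value over the threshold does not show that the levels are equal, and the 95% interval is given below for the genes with the largest differences.

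**Figure D4:**
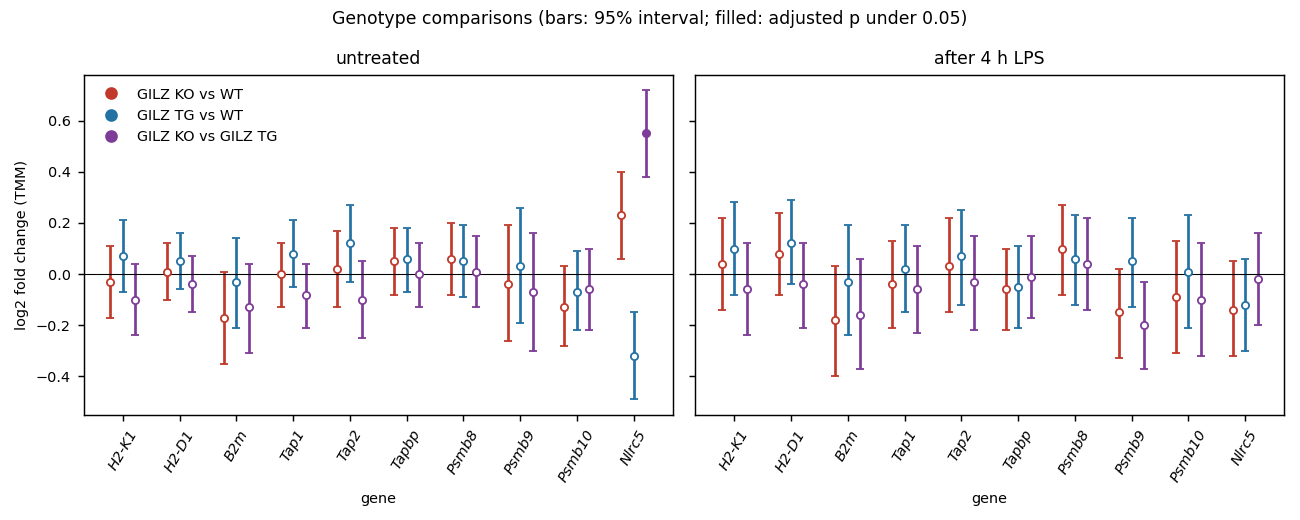
Log2 fold changes between genotypes for the 10 genes, untreated and after LPS, with 95% intervals from edgeR. Untreated Nlrc5 in GILZ KO against GILZ TG, at 0.55, is the only one of these that passed the threshold with edgeR.

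Nlrc5 was the exception among the untreated groups. Its TPM was 17.92, 16.32 and 18.87 in GILZ KO and 11.94, 10.96 and 14.37 in GILZ TG, with WT (16.05, 15.87 and 14.58) between them. All 3 GILZ TG libraries were below all WT libraries, and all 3 GILZ KO libraries were above. In GILZ KO against GILZ TG its log2 fold change was 0.55 (95% interval 0.38 to 0.72, edgeR adjusted p = 0.00697), which is 1.46-fold. Against WT it was 0.23 in GILZ KO (0.06 to 0.40, edgeR adjusted p = 0.404) and -0.32 in GILZ TG (-0.49 to -0.15, adjusted p = 0.107 with edgeR and 0.0329 with DESeq2). GILZ TG replicate 3, without the high stromal markers of replicates 1 and 2, was the nearest to WT. With replicate 3 as the only GILZ TG preparation, the log2 fold change between GILZ KO and GILZ TG was 0.50 and was not called (edgeR adjusted p = 0.126). The part of the other cells in this difference was not tested. An exact permutation test of 3 libraries against 3 cannot give a p-value under 0.1.

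After LPS this order was no longer seen in Nlrc5. Its TPM was 246.36, 208.4 and 224.22 in WT, 202.18, 214.69 and 203.08 in GILZ KO and 222.39, 216.79 and 218.67 in GILZ TG. The GILZ KO libraries lay just below the GILZ TG libraries in TPM, but the log2 fold change was -0.02 (95% interval -0.20 to 0.16, edgeR adjusted p = 0.939). The LPS response itself, tested as an interaction, was -0.59 in GILZ KO against GILZ TG (SE 0.12, 95% interval -0.84 to -0.34, edgeR adjusted p = 0.0618), which missed the threshold. It passed in 6 of 18 alternatives, among them DESeq2 (adjusted p = 0.00268), and the adjusted p ranged from 0.00268 to 0.514. Leaving out GILZ TG untreated replicate 3 (adjusted p = 0.0455) or GILZ KO LPS replicate 2 (adjusted p = 0.048) was enough to pass it. Untreated and LPS libraries of the same number correlated in GILZ TG but not in GILZ KO, and with the replicate number as a block the adjusted p was 0.0133. In the 3 comparisons of the LPS response, 0 of 10 members were called with edgeR, where 0.0152% (GILZ KO against WT), 0.00759% (GILZ TG against WT) and 0.121% (GILZ KO against GILZ TG) of all genes were. The members at an unadjusted p under 0.05 were 1, 0 and 1 (6.36%, 3.09% and 9.92% of all genes), and DESeq2 called 0, 0 and 1.

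**Figure D5:**
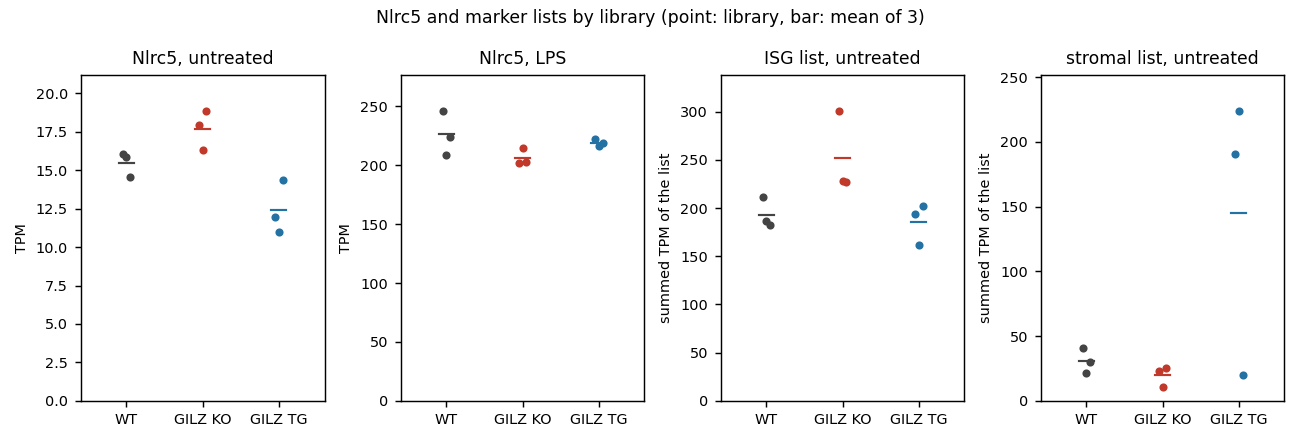
Nlrc5 in TPM, untreated and after LPS, beside the summed TPM of the interferon-stimulated and the stromal lists in the untreated libraries, by genotype. Points are libraries and bars means of 3, with untreated Nlrc5 highest in GILZ KO and lowest in GILZ TG, and 2 of 3 GILZ TG libraries far above the others in stromal markers.

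Interferon-stimulated genes were compared in the same groups. The 12 ISGs summed to 211, 187 and 182 TPM in untreated WT, 301, 228 and 227 TPM in GILZ KO and 194, 162 and 202 TPM in GILZ TG. Between untreated GILZ KO and GILZ TG, 3 of 12 were called higher and 9 had an unadjusted p under 0.05. Over all genes, 4.94% were called in either direction and 24.6% had an unadjusted p under 0.05. Ifit2 had a log2 fold change of 1.21 (SE 0.24, edgeR adjusted p = 0.027) and Ifit1 of 1.16 (SE 0.23, edgeR adjusted p = 0.023). Between untreated GILZ KO and WT, 0 were called (0.0951% of all genes) and 10 had an unadjusted p under 0.05 (9.6% of all genes), with a median log2 fold change of 0.84. Ifit1 was at 16.88, 9.95 and 9.42 TPM in GILZ KO, 6.47, 5.78 and 6.2 TPM in WT and 4.31, 5.04 and 6.5 TPM in GILZ TG. GILZ TG replicate 3, the highest of its group, was still below all GILZ KO libraries. In the LPS response of GILZ KO against GILZ TG, 2 of 12 ISGs were called lower, Mx2 (log2 fold change -1.69) and Ifit1 (-1.47), where 0.121% of all genes were called. The part of these genes in the level of Nlrc5 was not tested.

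After LPS, Irf1 and Irf8, regulators of class I genes, differed between GILZ KO and GILZ TG, although none of the 10 members was called, and in both genes the WT libraries overlapped those of GILZ KO. Irf1 was at 355.11, 395.73 and 357.06 TPM in GILZ KO and 526.67, 532.4 and 453.87 TPM in GILZ TG, with WT at 426.15, 411.28 and 363.78 TPM. Its log2 fold change was -0.45 (SE 0.09, edgeR adjusted p = 0.0323). Irf8, its partner in macrophages, was at 81.46, 95.06 and 87.05 TPM in GILZ KO and 135.04, 141.22 and 117.02 TPM in GILZ TG, with WT at 104.95, 81.35 and 83.07 TPM. The log2 fold change of Irf8 was -0.57 in GILZ KO against GILZ TG (SE 0.11, edgeR adjusted p = 0.0285). In GILZ TG against WT, Irf1 had 0.33 (edgeR adjusted p = 0.135) and Irf8 0.59 (edgeR adjusted p = 0.055), and in GILZ KO against WT the values were -0.12 and 0.02. For both genes GILZ TG replicate 3, at 453.87 and 117.02 TPM, was the lowest of its group and above all GILZ KO libraries. These were 2 of the 14 regulators, where 2.6% of all genes were called between GILZ KO and GILZ TG, and no other regulator was called. Of the 12 ISGs, Mx1 (-0.47) and Mx2 (-0.39) were called lower as well.

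In the other 9 genes the genotype differences were small. B2m was at 2514.29, 2469.01 and 2355.48 TPM in untreated GILZ KO, below all WT libraries, and at 3459.17, 3737.91 and 3648.35 TPM after LPS, again below all WT libraries. The log2 fold change between GILZ KO and WT was -0.17 untreated (95% interval -0.35 to 0.01, edgeR adjusted p = 0.533) and -0.18 after LPS (-0.40 to 0.03, edgeR adjusted p = 0.592). As the heavy chains did not follow, both heavy chains together per B2m were at 1.04 ± 0.0524 in untreated GILZ KO against 0.919 ± 0.0215 in WT, and at 1.06 ± 0.0086 against 0.894 ± 0.0794 after LPS (SD, n = 3). All GILZ KO libraries were above all WT libraries in both cases. In GILZ TG this ratio was 0.979 ± 0.0809 untreated and 0.982 ± 0.0782 after LPS, also above WT on average but overlapping with it. The ratio was not tested, and no share of such separations over other gene pairs was computed.

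Psmb9 after LPS was at 194.96, 202.37 and 226.63 TPM in GILZ KO and 235.76, 226.9 and 258.81 TPM in GILZ TG. Its log2 fold change was -0.20 (95% interval -0.37 to -0.03, edgeR adjusted p = 0.194). The ratio of Psmb9 to Psmb6 was 0.527, 0.549 and 0.575 in GILZ KO after LPS, below the 0.646 to 0.706 of WT and the 0.585 to 0.693 of GILZ TG. Untreated, the GILZ KO libraries had 0.755 to 0.835 Psmb8 per Psmb5, above the 0.666 to 0.724 of WT. After LPS this ratio overlapped, with 2.04, 2.34 and 2.13 for GILZ KO beside 2.09, 1.98 and 1.98 for WT. Untreated Psmb9 per Psmb6 overlapped as well (means of 0.164 and 0.167). Psmb10 per Psmb7 after LPS was lower in all GILZ KO libraries (1.04, 1.21 and 1.21) than in WT (1.25, 1.3 and 1.33). Untreated, its highest GILZ KO and lowest WT value were both 0.252. These ratios were not tested, and how often other gene pairs separate in this way was not computed.

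Groups that did not overlap in TPM were frequent among all genes, so that single cases say little. In untreated BMMs, GILZ KO and WT did not overlap in 5 of the 10 genes (H2-D1, Tapbp and Nlrc5 higher, B2m and Psmb10 lower) and in 17.2% of the 11683 genes with a mean of at least 1 TPM. The scaling matters here, as with TMM the log2 fold changes of H2-D1 and Tapbp were only 0.01 and 0.05. Those of Nlrc5, B2m and Psmb10 were 0.23, -0.17 and -0.13. For GILZ TG with WT it was 1 of 10, beside 14.9% of all, and for GILZ KO with GILZ TG 1 of 10, beside 29.4%. After LPS it was 1 of 10 (16.3% of all) for GILZ KO against WT, 2 of 10 (14.9%) for GILZ TG against WT and 2 of 10 (20.5%) for GILZ KO against GILZ TG. The 3 comparisons of a treatment share their libraries in pairs.

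Within groups, most pairs of the 10 genes correlated positively. After the mean of each group was subtracted, the 45 pairs among the 10 genes had a median Pearson r of 0.67 over the 18 libraries, from -0.24 to 0.92, and 43 were above 0. The pairs with Nlrc5 had a median of 0.25 and the other 36 pairs of 0.70. Tap1 with H2-K1, Psmb10 with Tap2 and Tapbp with B2m had the highest values, at 0.92 each. These r share library depth and preparation between genes and are given without a test. How strongly other pairs of genes correlate within groups was not computed, so the values are not shown to be particular to this pathway. The genes whose level was most like the mean of the 10 over all 18 libraries were Prpf38a, Ifi35, Myd88, H2-T22 and Usf1 (r of 0.999 each), which mostly repeats the division between untreated and LPS libraries. With group means subtracted they were Hk3 (0.954), Slc3a2 (0.92), Stx2 (0.908), Gpr108 (0.893) and Sat1 (0.889), out of 9383 genes with a mean of at least 5 TPM.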

How the data were processed

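RNA of BMMs was poly(A)-selected and sequenced. The authors checked reads with FastQC 0.11.2, processed them with the grape-nf pipeline and mapped them to GRCm38. The quantifier, annotation release and strand setting are not given in the sources used here. The deposited library tables hold the expected count (estimated reads per gene), TPM and the posterior SD of the count. The authors' DESeq2 1.40.2 comparison tables hold fold changes, p-values and baseMean, a signal of normalized counts. Only their gene identifiers and symbols were used. Members and gene lists were chosen with earlier results of these data known.

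Expected counts were rounded, filtered with filterByExpr and scaled by TMM. Tests used edgeR's quasi-likelihood fit (version 4.0.16, R 4.3.3), with Benjamini-Hochberg adjustment over all genes and a threshold of 0.05. The 9 libraries of a treatment were fitted with genotype, and all 18 with group for LPS effects and interactions. Totals of 14583055 to 38557029 per library set the precision of low genes, and error in counting alone is small for the members. The test was checked on simulated data, where the share of false calls was above the threshold with edgeR and higher still with DESeq2. All 10 members were named, and from each list the 2 called genes of at least 5 TPM that changed most, upwards and downwards, of which some are given. Irf1, Irf8, Ifit1, Ifit2, Mx1 and Mx2 follow this rule.

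Alternatives were DESeq2 1.42.0, its size factors, no filter, other sets of libraries, a replicate block, leaving out each replicate, and the sum of heavy chain genes. Library totals and GILZ TG replicate 3 as the only GILZ TG preparation were added after seeing the data. Replicate numbers paired untreated and LPS libraries in GILZ TG (correlations of 0.266 to 0.605) but not throughout in WT and GILZ KO. Plots used matplotlib 3.10.9 (Python 3.11.15).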

Additional observations from a re-analysis of the deposited data

How the results depend on the processing

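The count of members past the threshold did not move in 164 of 172 alternatives. Of 390 log2 fold changes of called members, 389 kept their direction and side of the threshold, with 0 reversed. Most of these were LPS effects far past the threshold as reported, which say little about the genotypes. Only 14 concerned a genotype difference, that of Nlrc5 in GILZ KO against GILZ TG untreated, and 13 of them passed. For GILZ TG against WT untreated, DESeq2 called 1 in place of 0 (Nlrc5). For GILZ KO against GILZ TG untreated, GILZ TG replicate 3 as the only GILZ TG preparation gave 0 in place of 1, with a log2 fold change of 0.50 for Nlrc5 (adjusted p = 0.126), where the lone library was assumed to vary like the other groups. Without each replicate in turn it was 0.51 to 0.57. For the LPS response of GILZ KO against GILZ TG, 1 member (Nlrc5) in place of 0 was called with DESeq2, no filter on low counts, library totals and the replicate block, and 0 to 1 without each replicate, with 1 without GILZ TG untreated replicate 3 (adjusted p = 0.0455) and without GILZ KO LPS replicate 2 (adjusted p = 0.048). The cause was not tested.

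The counts over all genes moved more. Between untreated groups, 12, 81 and 623 genes (GILZ KO against WT, GILZ TG against WT, GILZ KO against GILZ TG) became 79, 315 and 1218 with DESeq2, and leaving out replicates gave 5 to 6, 16 to 665 and 79 to 1306. After LPS, 10, 56 and 316 became 100, 274 and 715 with DESeq2 and 88, 412 and 822 without a filter, and leaving out replicates gave 4 to 23, 15 to 1067 and 24 to 1403. With GILZ TG replicate 3 alone, GILZ KO against GILZ TG gave 34 genes untreated and 34 after LPS. For the LPS response, 2, 1 and 16 genes became 20, 2 and 150 with DESeq2.

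Libraries of the same number correlated above 0.1 in 2 of 18 pairs of genotypes and in 4 of 9 pairs of untreated and LPS libraries, which were all 3 pairs of GILZ TG (0.266 to 0.605), 1 of WT and 0 of GILZ KO. Of 18 libraries, 11 correlated best with their own number. The libraries were paired in GILZ TG by this measure but not throughout, and were tested without pairing. With the replicate block, 1 member in place of 0 was called in the LPS response of GILZ KO against GILZ TG (Nlrc5, -0.59, adjusted p = 0.0133), and no other member count changed. Nlrc5 in GILZ KO against GILZ TG untreated had 0.55 (adjusted p = 0.00955), and the LPS responses gave 8, 2 and 144 genes.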
